A study of Trichoderma atroviride with 42 samples.

Results

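The comparison described here sets mycelium of the filamentous fungus Trichoderma atroviride 8 h after grazing by Drosophila melanogaster larvae against mycelium 8 h after cutting with a scalpel. Its members are the 3 larva libraries and the 3 injury libraries that the labels place at 8 h, 6 of 42 in the series, and every gene of the deposited count table was examined in them. The series measured RNA of wild-type mycelium grown for 36 h in the dark at 27 °C, after injury, after 10 min of grazing by larvae or by the collembola Orthonychiurus folsomi, and in plates only opened for 2 min. Harvests followed at 4 times up to 8 h, with untreated plates as an early and a late control, which gave 14 groups of 3 libraries. The larvae were taken off after the 10 min, so the 8 h mycelium had been free of them for hours. The scalpel cuts were spread over the whole mycelium. The labels used here do not give how much mycelium either treatment damaged, so the kind and the amount of damage cannot be told apart.

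Wounding is a developmental signal for this fungus, which regrows cut hyphae and forms conidia, its asexual spores, at the injured front. Reactive oxygen species, calcium, MAP kinases and oxylipins, the oxidised fatty acids made by lipoxygenases, are known parts of that response. Grazing adds contact with a living animal to the mechanical damage, and the comparison with injury at the same time asks what is left of that difference at 8 h. In bulk mycelium fewer cells of a type and less RNA per cell cannot be told apart.

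Levels below are CPM, reads of a gene scaled to a common library size with TMM factors. Larvae minus injury is given on the log2 scale with its standard error. A gene was called higher or lower at an adjusted p under 0.05 in edgeR's quasi-likelihood test, with p-values adjusted over all 9193 genes tested. Each named gene's test was repeated with each of the 6 libraries left out in turn, and these are the repeats meant below. The 3 replicates of each group were biologically independent, and each was a pool of 3 technical samples, according to the design text. Genes carry only their deposited IDs and, for 2865 of the genes tested, a product text. The texts come from the authors' deposited table for injury at 30 min, so genes with a text were selected by the authors on an injury response. The IDs matched no reference table used here, so no sequences are shown.

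The 3 larva libraries differed from each other more than the injury libraries did. Total counts were 2479450, 1607248 and 4332056 in larva replicates 1, 2 and 3, and 3839274 to 4561704 in the injury libraries. Correlations of log2 CPM lay between 0.954 and 0.969 within the larva group and between 0.985 and 0.989 within the injury group. Larva replicate 3 correlated with the injury libraries at 0.981 to 0.986, above its correlation with either other larva library. One gene without a product text, Tatro_002410-T1, held 6.2%, 14.9% and 0.258% of the counts in larva replicates 1, 2 and 3 and 1.03% to 1.54% in the injury libraries. The part of these differences in the gene results was not tested.

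**Figure D1:**
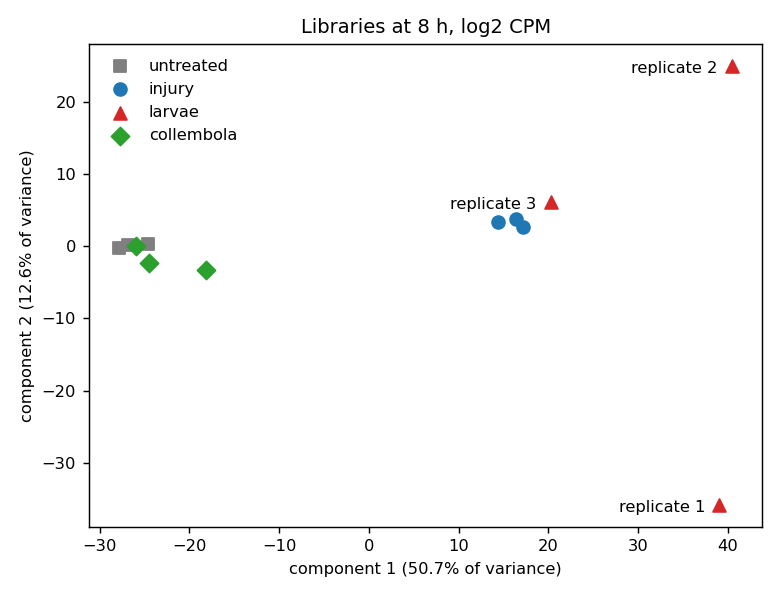
Principal components of log2 CPM over the 12 libraries at 8 h, component 1 (50.7% of the variance) against component 2 (12.6%), 1 point per library. Larva replicate 3 (20.27 on component 1) lies next to the injury libraries (14.42 to 17.18), while larva replicates 1 and 2 lie at 39.08 and 40.46 and at opposite ends of component 2.

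Few genes separated larvae from injury at 8 h. Of 9193 genes tested 139 were called (1.51%), 84 higher after larvae (0.914%) and 55 lower (0.598%), and 58 of them differed at least 2-fold (0.631%). The called rises had a median of 0.98 and the called falls a median of -0.79 on the log2 scale. The median over all genes tested was -0.002. Against untreated mycelium at 8 h, larvae gave 2290 calls (24.9%), 11.9% of genes higher and 13% lower. Injury gave 2071 calls (22.5%), 10.9% higher and 11.6% lower. That order turned in fits to the 6 libraries of each contrast alone, with 1444 calls for larvae and 2962 for injury. Larvae against injury gave 2882 calls (31.3%) at 30 min, 1078 (11.7%) at 90 min and 562 (6.11%) at 4 h, with other libraries at each time.

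The number of calls depended on single libraries. Without larva replicate 3 there were 449 calls, without larva replicate 1 there were 63, without injury replicate 2 there were 39 and without injury replicate 3 there were 54. Without larva replicate 2 there were 107 calls and without injury replicate 1 there were 207. A fit to the 6 libraries alone, which estimates the spread from them and not from all 42, called 11 genes, all higher after larvae. Scaled by library totals alone, there were 114 calls, 50 higher and 64 lower, and the median of all genes moved to -0.073. In all, 21 genes were called in the full fit and in each of the 6 repeats, 17 of them higher and 4 lower.

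**Figure D2:**
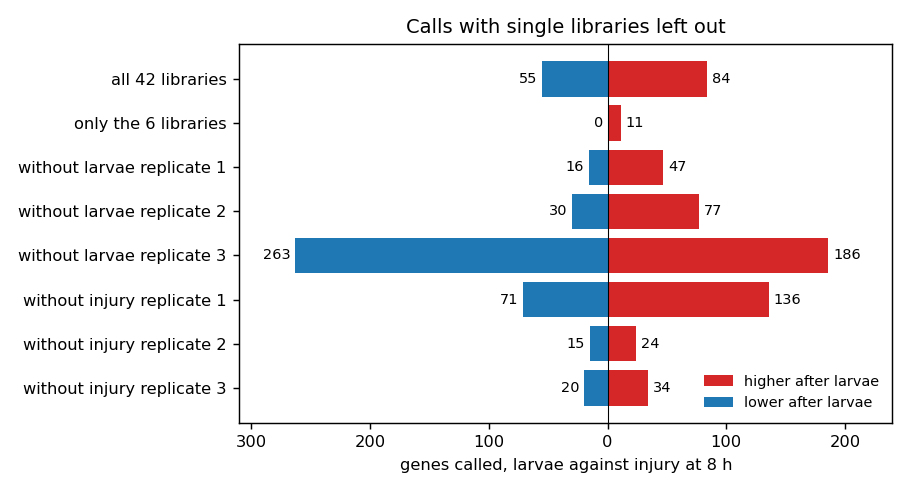
Number of genes called higher (right of 0) and lower (left of 0) after larvae than after injury at 8 h, in the fit to all 42 libraries, in a fit to the 6 libraries alone and with each library left out. Leaving out larva replicate 3 raised the calls from 139 to 449, while the 6 libraries alone gave 11 rises and 0 falls.

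Set beside the untreated 8 h group, most rises were genes above the untreated level after larvae, and most falls were genes below it after larvae. Both damages share that untreated group, so the 2 comparisons with it are given side by side and not tested against each other. Of the 84 rises, 27 were above the untreated level after both damages and 34 were above it after larvae while injury was not called. Another 15 were below the untreated level after injury while larvae were not called, and 8 were called in neither comparison. Of the 55 falls, 30 were below the untreated level after larvae while injury was not called and 12 were below it after both. A further 9 were above it after injury while larvae were not called, 3 were called in neither, and 1 gene, the transporter Tatro_007357-T1, was above it after injury and below it after larvae. Groups did not overlap between the 3 and 3 libraries for 73 of the rises and 49 of the falls, against 7.52% and 7.15% of all genes tested. The calls were made from these same libraries, so nothing is read from those counts beside the shares.

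**Figure D3:**
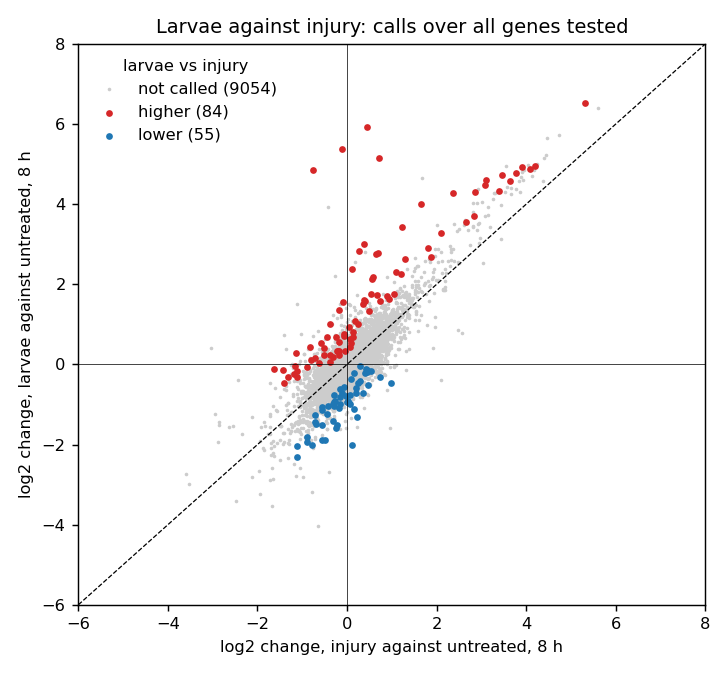
Log2 change of each gene tested after injury (horizontal) and after larvae (vertical), both against the same untreated 8 h group, with the genes called in larvae against injury in colour (84 higher, 55 lower) and equality as a dashed line. A few rises stand near 0 on the injury axis and above 4 on the larva axis, while most coloured genes lie close to the dashed line.

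The steepest rises were of genes without a product text that were close to silent except after larvae. Tatro_011979-T1 was at 10.3, 51.6 and 24.1 CPM in the larva libraries, at 0, 1.02 and 0.467 CPM after injury and at 0.462, 1.43 and 0.902 CPM in untreated mycelium. The 3 injury libraries held 7 of its reads in all and the 3 larva libraries 220. The groups were fully apart, with larva replicate 2 highest, and larvae minus injury was 5.61 ± 0.55 (SE, n = 3 per group, adjusted p = 1.5e-08). With so few injury reads the size of this fold is imprecise, but the call held in all 6 repeats (log2 5.03 to 6.66).

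Tatro_006574-T1 was at 6.1, 28.8 and 14.1 CPM after larvae and at 0.234, 0 and 0.7 CPM after injury, with 4 injury reads in all. Its groups were apart and the difference was 5.50 ± 0.86 (adjusted p = 0.00025), again in all 6 repeats. Tatro_011908-T1 and Tatro_007285-T1, chosen after their values were seen, had the same shape. Tatro_011908-T1 was at 25.6, 99.1 and 40.1 CPM after larvae against 0.701, 1.02 and 1.63 CPM after injury (5.50 ± 0.51, adjusted p = 3.2e-09). Tatro_007285-T1 was at 10.3, 45.5 and 15.8 CPM after larvae against 0.701, 1.22 and 0.933 CPM after injury (4.43 ± 0.60, adjusted p = 1.5e-05). In all 4 genes the collembola libraries at 8 h stayed at 2.54 CPM or less, and larva replicate 2, the shallowest of the 6 libraries, was the highest.

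These genes were not particular to 8 h. Larvae minus injury was also called at 4 h in all 4, with log2 values of 4.43, 3.15, 4.03 and 3.57 for Tatro_011979-T1, Tatro_006574-T1, Tatro_011908-T1 and Tatro_007285-T1. Tatro_006574-T1, Tatro_011908-T1 and Tatro_007285-T1 were called higher at 30 and 90 min as well. Tatro_011979-T1 had 1 read over the 3 larva libraries at 30 min, 8 at 90 min, 95 at 4 h and 220 at 8 h, and its 30 and 90 min differences were not called.

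Among genes with a product text, the largest rise was that of Tatro_006439-T1, an ankyrin repeat protein. Ankyrin repeats are protein-binding modules that in fungi often sit in NLR-like proteins, a family linked to recognition of non-self. Its level was 109, 46.9 and 72.3 CPM after larvae and 17.8, 15.1 and 22.4 CPM after injury, against 9.69, 10.3 and 13.8 CPM in untreated mycelium. No injury library reached the lowest larva library. Larvae minus injury was 2.08 ± 0.27 (SE, n = 3 per group, adjusted p = 1.4e-05), a 4.22-fold difference, and it held in all 6 repeats. At 30 min the same gene had been lower after larvae than after injury (-0.99, adjusted p = 0.0022).

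The neighbouring ID, Tatro_006438-T1, carries the text of a berberine-like protein, a family of flavin-linked oxidases. It was at 43.9, 31.5 and 31.4 CPM after larvae and at 11, 10.2 and 14.9 CPM after injury. The groups were apart by more than the spread within either, and the difference was 1.57 ± 0.24 (adjusted p = 0.00012), called in all 6 repeats. Whether the neighbouring IDs are neighbours on a chromosome was not examined here.

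A second run of neighbouring IDs, Tatro_000002-T1 to Tatro_000006-T1, held 5 genes that were all called higher after larvae. The 3 with a product text are repeat-domain proteins, 2 with ankyrin repeats and 1 with tetratricopeptide repeats, another protein-binding module. The tetratricopeptide gene Tatro_000006-T1 was at 57.2, 28.8 and 42 CPM after larvae and at 23.1, 15.5 and 17 CPM after injury. Its groups did not overlap and the difference was 1.24 ± 0.24 (adjusted p = 0.0034). Without larva replicate 1 its call was lost (adjusted p = 0.0577).

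The ankyrin gene Tatro_000002-T1 was at 36.2, 12.7 and 32.2 CPM after larvae and at 15.4, 13.4 and 8.86 CPM after injury, so larva replicate 2 lay inside the injury range. Its difference was 1.18 ± 0.29 (adjusted p = 0.022), lost in 4 of the 6 repeats with an adjusted p of up to 0.167 (without injury replicate 3). The ankyrin gene Tatro_000005-T1 was at 43.9, 32.1 and 34.1 CPM after larvae against 25.9, 18.9 and 18 CPM after injury (0.82 ± 0.19, adjusted p = 0.017). It was lost in 3 of the 6, without larva replicate 1 (adjusted p = 0.16), injury replicate 2 or injury replicate 3. The untexted members Tatro_000003-T1 and Tatro_000004-T1 differed by 0.83 and 1.15 on the log2 scale. All 5 genes were also higher after larvae at 4 h, by 2.10 for Tatro_000003-T1 and by 1.17 for Tatro_000005-T1, the ends of the range.

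A list of 85 genes held those whose text names ankyrin or tetratricopeptide repeats or a domain of NLR-like and heterokaryon incompatibility proteins. Of these, 6 were higher after larvae (7.06%, against 0.914% of all genes tested and 1.15% of those with a text) and 0 lower. The median of the 85 was 0.10 and that of all genes -0.002, so most members did not differ by the test. The other called members were Tatro_002853-T1, a heterokaryon incompatibility protein of the fungal self-recognition system (0.68 ± 0.19, adjusted p = 0.047), and the tetratricopeptide gene Tatro_010255-T1 (0.53 ± 0.14, adjusted p = 0.037), both named after their values were seen. Of the 6, 3 belong to the run of neighbouring IDs, and only the call of Tatro_006439-T1 held in all 6 repeats. Compared with untreated mycelium 30 of the 85 were higher after larvae and 25 after injury, against 11.9% and 10.9% of all genes tested.

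Single genes for oxidising enzymes were called, in both directions. Tatro_003855-T1, the only gene with a lipoxygenase text, was at 935, 2148 and 1318 CPM after larvae, at 463, 533 and 733 CPM after injury and at 246, 192 and 264 CPM in untreated mycelium. Every larva library lay above every injury library, and every injury library above every untreated one. The difference between larvae and injury was 1.34 ± 0.27 (SE, n = 3 per group, adjusted p = 0.004), a 2.54-fold difference. Without larva replicate 2, its highest library, the difference was 0.98 and the call was lost (adjusted p = 0.0626).

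At 4 h the lipoxygenase did not separate the treatments (-0.02 ± 0.26, adjusted p = 0.98), and the difference between 8 h and 4 h was itself called (1.36 ± 0.37, adjusted p = 0.038). Its mean level had been far higher at 30 min, 5426 CPM after larvae and 4618 CPM after injury. It was 1296 CPM after larvae and 1310 CPM after injury at 4 h, and 1467 and 576 CPM at 8 h. By these means the larva group at 8 h was near its 4 h level and the injury group was below its own. The change from 4 h to 8 h within either treatment was not tested, and the times use separate libraries.

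The cytochrome P450 Tatro_001233-T1, of a family of haem enzymes that oxidise small molecules, was at 553, 656 and 501 CPM after larvae, 257, 240 and 304 CPM after injury and 71.5 to 80.1 CPM in untreated mycelium. The groups were apart, with larvae minus injury at 1.09 ± 0.25 (adjusted p = 0.017). The call was lost without larva replicate 2 (adjusted p = 0.0607) and without injury replicate 2 (adjusted p = 0.123), but this gene was also among the 11 called from the 6 libraries alone. Another P450, Tatro_005621-T1, was lower after larvae, at 11.4, 2.68 and 8.1 CPM against 13.5, 15.5 and 13.5 CPM after injury (-0.82 ± 0.22, adjusted p = 0.044). Its call was lost in 4 of the 6 repeats (adjusted p up to 0.229, without injury replicate 2). Of 44 monooxygenase, dioxygenase and cytochrome b5 genes 2 were higher and 1 lower, against 0.914% and 0.598% of all genes tested. Their median was -0.06.

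The other higher gene of that list was Tatro_001832-T1, an indoleamine 2,3-dioxygenase, the enzyme type that opens the ring of tryptophan. Its list word was added after its values were seen. It was at 388, 245 and 229 CPM after larvae, 192, 194 and 159 CPM after injury and 268 to 294 CPM in untreated mycelium. The larva and injury groups did not overlap (0.66 ± 0.16, adjusted p = 0.024), while the call was lost in 3 of the 6 repeats, with 0.37 and an adjusted p of 0.349 without larva replicate 1.

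**Figure D4:**
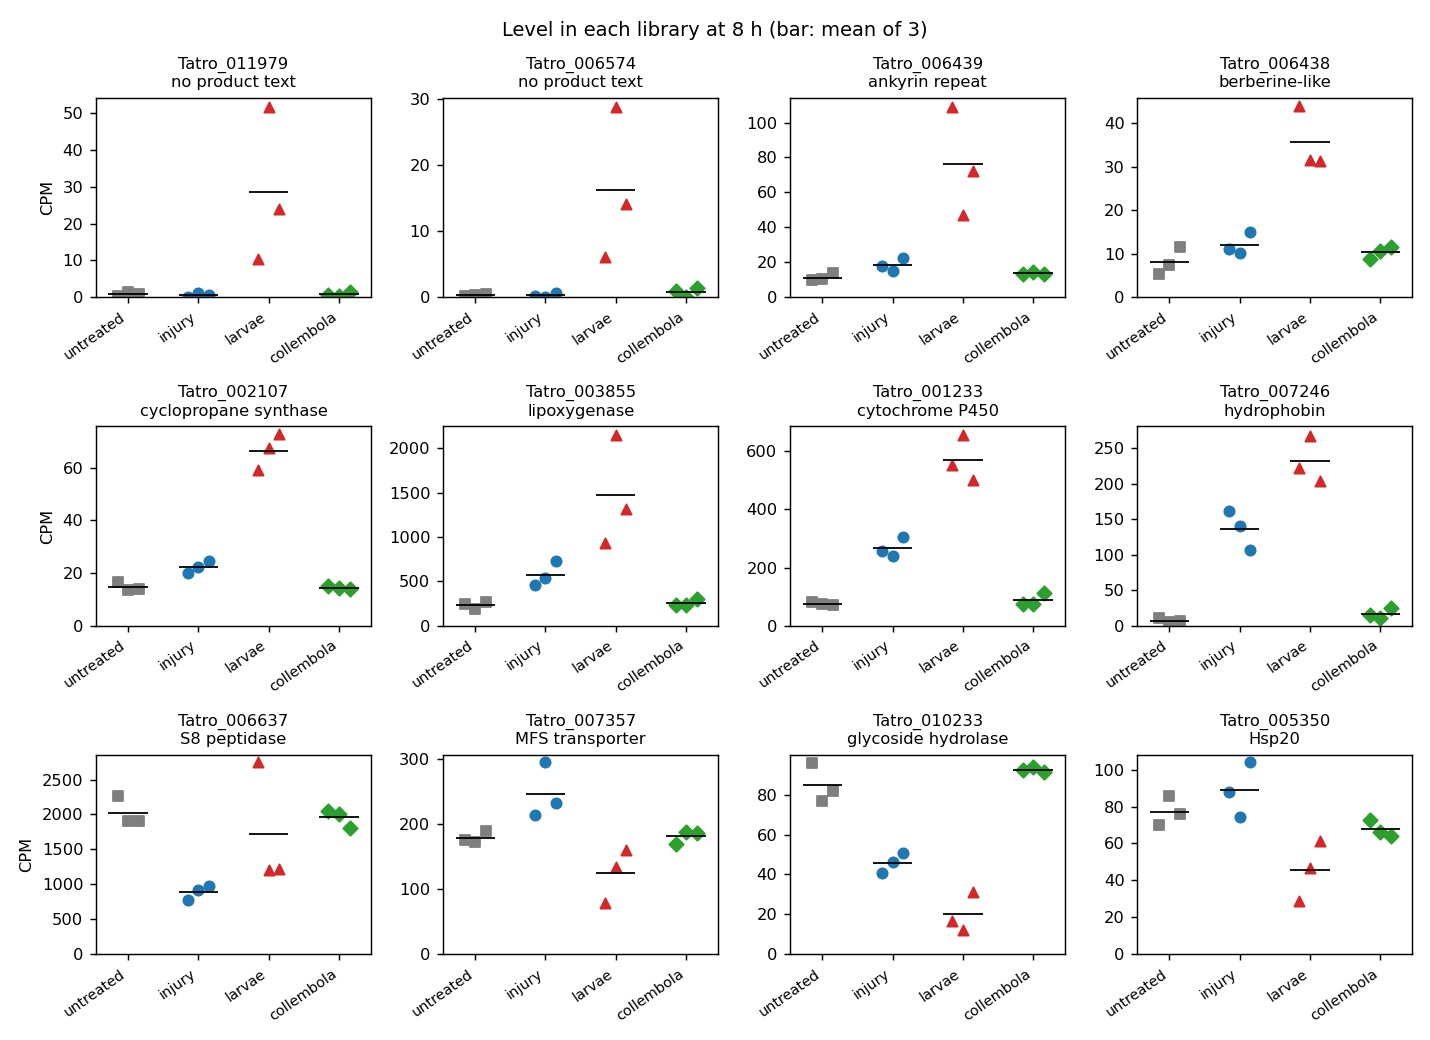
Levels in CPM (linear axes from 0) of 12 genes in each library at 8 h, with 3 points and their mean as a bar for untreated, injury, larvae and collembola. The larva points of Tatro_011979 (10.3 to 51.6 CPM) stand over injury points of at most 1.02 CPM, while for Tatro_006637 one larva library (2755 CPM) carries the mean.

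Catalases, which break down hydrogen peroxide, were not called. Tatro_007179-T1 was at 23.3, 82.4 and 36.8 CPM after larvae and 23.1, 29.1 and 19.8 CPM after injury, overlapping groups with a difference of 0.87 ± 0.31 (adjusted p = 0.18). Both groups were above untreated mycelium, which was at 3.14 to 4.96 CPM (larvae 3.49 and injury 2.62 on the log2 scale, both called). The other 3 catalase genes were not called either. Tatro_002100-T1 and Tatro_008157-T1 differed by -0.04 ± 0.13 and -0.03 ± 0.12, and Tatro_006112-T1 was below 5 CPM in every 8 h library. The next ID to Tatro_007179-T1, the methyltransferase Tatro_007178-T1, has the domain of histidine-specific methyltransferases, found in enzymes of ergothioneine synthesis. It was at 26.3, 81.7 and 30.1 CPM after larvae against 13.8, 17.5 and 13.3 CPM after injury and was called (1.50 ± 0.34, adjusted p = 0.016). Its call was lost without larva replicate 2 (log2 0.94, adjusted p = 0.169), the highest library, and without injury replicate 3 (adjusted p = 0.0841).

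The mycolic acid cyclopropane synthase Tatro_002107-T1 belongs to a family of methyltransferases that modify fatty acyl chains. It was at 59.1, 67.6 and 72.7 CPM after larvae, 19.9, 22.2 and 24.5 CPM after injury and 13.4 to 16.6 CPM in untreated mycelium. Its larva libraries lay close together and far from the injury libraries. The difference was 1.59 ± 0.27 (adjusted p = 0.00075), a 3.01-fold difference called in all 6 repeats (log2 1.50 to 1.66).

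Regulators contributed single genes. The bZIP transcription factor Tatro_007800-T1, of a class of DNA-binding proteins often linked to stress responses, was at 22.9, 30.1 and 22.2 CPM after larvae and 7.94, 12.4 and 10.7 CPM after injury. The groups were apart (1.22 ± 0.25, adjusted p = 0.006) and the call held in all 6 repeats. Tatro_006936-T1, a fungal transcription factor domain gene, was lower after larvae, at 482, 317 and 557 CPM against 623, 794 and 676 CPM (-0.62 ± 0.14, adjusted p = 0.016). It was lost without larva replicate 2 (adjusted p = 0.13) and without injury replicate 2 (adjusted p = 0.17). These were the 2 called genes of 108 with a transcription factor text, against 1.51% called of all genes tested. The list's median was -0.06.

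The calcium-binding EF-hand gene Tatro_003395-T1 was at 34.3, 36.2 and 33.4 CPM after larvae and 22, 18.5 and 21.7 CPM after injury, with tight and separate groups. It was higher after larvae by 0.73 ± 0.18 (adjusted p = 0.02), lost in 4 of the 6 repeats (adjusted p up to 0.162, without injury replicate 2). At 4 h it had been lower after larvae (-0.50, adjusted p = 0.049), and the difference between the times was called (1.23 ± 0.24, adjusted p = 0.0027). It was the only called gene of 17 in calcium and G-protein signalling, where 1.51% of all genes tested were called. The 3 genes with a MAP kinase text, the phosphorylation relay of wound and osmotic signalling, differed by -0.02 ± 0.09, -0.01 ± 0.09 and 0.00 ± 0.09, with 0 called. No gene with a text for NADPH oxidase, the enzyme that makes superoxide, was found among the product texts.

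Single genes for surface and secreted proteins were called in both directions. The hydrophobin Tatro_007246-T1, of the cerato-ulmin family and so a small amphipathic protein of the kind that coats aerial hyphae and conidia, was at 222, 268 and 205 CPM after larvae, 161, 141 and 106 CPM after injury and 5.13 to 10.6 CPM in untreated mycelium. Both damages raised it steeply (31.1-fold after larvae and 18.4-fold after injury), and the larva libraries lay above the injury libraries. That difference was 0.76 ± 0.20 (adjusted p = 0.039), lost in 4 of the 6 repeats (adjusted p up to 0.263, without injury replicate 3) and in DESeq2 (adjusted p = 0.0783). The only other gene with a conidiation word in its text, the Spo7-like Tatro_003866-T1, differed by -0.06 ± 0.14.

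The cerato-platanin Tatro_001935-T1, of a family of small secreted fungal proteins that plants can recognise, was lower after larvae. It was at 811, 240 and 857 CPM after larvae and 1063, 1450 and 1563 CPM after injury. The groups were apart, but larva replicate 2 stood far below the other larva libraries. The difference was -1.08 ± 0.29 (adjusted p = 0.042), and without larva replicate 2 it was -0.69 (adjusted p = 0.221). Calls were also lost without injury replicates 2 and 3. Of the 5 genes with a CFEM domain, a cysteine-rich domain of fungal surface proteins, 0 were higher and 1 was lower. Of all genes tested 0.914% were higher and 0.598% lower. The lower CFEM gene was Tatro_003494-T1 (-0.59 ± 0.16, adjusted p = 0.041, lost in 5 of the 6 repeats, adjusted p = 0.308 without larva replicate 1). Without larva replicate 3 its difference was -1.01. The CFEM gene Tatro_000363-T1 was at 25.6, 18.1 and 150 CPM after larvae and 111, 152 and 158 CPM after injury. With larva replicate 3 inside the injury range it was not called (-0.96 ± 0.52, adjusted p = 0.44), and without that library it was (-2.64, adjusted p = 0.00986).

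Of 61 peptidase genes 2 were called in larvae against injury, both higher after larvae, and the list's median was -0.02. The share higher was 3.28%, against 0.914% of all genes tested and 1.15% of those with a product text. Compared with untreated mycelium 13 of the 61 were lower after larvae and 16 after injury, against 13% and 11.6% of all genes tested. Tatro_006637-T1, a subtilisin-type S8 peptidase, was at 2755, 1209 and 1216 CPM after larvae, 782, 921 and 979 CPM after injury and 1904 to 2265 CPM in untreated mycelium. It was below the untreated level after injury (-1.18, adjusted p = 0.0003), while larvae against untreated was not called (-0.23, adjusted p = 0.51). The larva libraries lay above the injury libraries by 0.95 ± 0.23 (adjusted p = 0.024), and without larva replicate 1, the one library above the untreated range, it was 0.43 (adjusted p = 0.424). Calls were also lost without any one of the 3 injury libraries.

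The metallopeptidase Tatro_001070-T1 was at 1311, 796 and 670 CPM after larvae, 432, 463 and 552 CPM after injury and 1154 to 1498 CPM in untreated mycelium. Its groups were apart (0.94 ± 0.21, adjusted p = 0.014), with the call lost without larva replicate 1 (log2 0.59, adjusted p = 0.224) and without injury replicate 2 (adjusted p = 0.0887). The CoA-binding gene Tatro_008975-T1 was also higher after larvae than after injury (1.13 ± 0.23, adjusted p = 0.004). It was at 266, 79 and 103 CPM after larvae, 68.2, 74 and 64.2 CPM after injury and 150 to 162 CPM in untreated mycelium. Larva replicate 1 lay above the untreated range and larva replicates 2 and 3 below it. Without larva replicate 1 it differed by 0.42 (adjusted p = 0.29). In all 3 genes that library was the highest of the 6.

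The falls described next are those of single genes. The major facilitator superfamily (MFS) transporter Tatro_007357-T1, of a family that moves sugars, drugs and other small molecules across membranes, was at 79, 134 and 160 CPM after larvae and 214, 296 and 232 CPM after injury. Untreated mycelium lay between them, at 173 to 189 CPM. Larvae minus injury was -0.98 ± 0.17 (adjusted p = 0.001) and was called in all 6 repeats, the only fall with a product text for which that held. Against untreated mycelium it was -0.52 after larvae and 0.46 after injury, both called.

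Tatro_007357-T1 opens a run of 3 neighbouring IDs that were all lower after larvae. Its last member, the alpha/beta hydrolase Tatro_007359-T1, of a broad fold that includes esterases and lipases, was at 9.92, 20.8 and 27.4 CPM after larvae against 37.8, 44.5 and 41.8 CPM after injury. The groups were apart (-1.04 ± 0.21, adjusted p = 0.004), and without larva replicate 1 the call was lost (-0.73, adjusted p = 0.0649). The untexted Tatro_007358-T1 between them differed by -0.59 ± 0.16 (adjusted p = 0.048).

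The transporter Tatro_010333-T1 was the other lower MFS gene, at 41.6, 29.5 and 50.1 CPM after larvae and 64, 64.5 and 89.6 CPM after injury (-0.79 ± 0.19, adjusted p = 0.022). Its call was lost in 3 of the 6 repeats (adjusted p up to 0.194, without injury replicate 3). It was also lower after larvae at 4 h (-1.36) but higher at 30 min (1.08), both called. Of 78 genes with an MFS text 0 were higher and 2 lower at 8 h (0% and 2.56%, against 0.914% and 0.598% of all genes tested). Their median was -0.09. Among all 2865 genes with a product text 33 were higher and 24 lower. In the list of other transporters, 54 genes, 1 was higher and 0 lower.

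The glycoside hydrolase Tatro_010233-T1, of the enzymes that cut sugar polymers, was at 16.4, 12.1 and 31.4 CPM after larvae, 40.9, 46.2 and 50.6 CPM after injury and 76.7 to 95.8 CPM in untreated mycelium. The 3 groups formed a descending order without overlap from untreated through injury to larvae. Larvae minus injury was -1.05 ± 0.21 (adjusted p = 0.004), without larva replicate 1 it was -0.89 (adjusted p = 0.0565) and without larva replicate 3 it was -1.64. At 4 h it did not separate the treatments (0.19 ± 0.19, adjusted p = 0.62). Of 55 glycoside hydrolases 2 were higher and 3 lower, against 0.914% and 0.598% of all genes tested, and their median was -0.04. Compared with untreated mycelium 23 of the 55 were lower after larvae and 22 after injury, against 13% and 11.6% of all genes tested.

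The Hsp20 gene Tatro_005350-T1, a small heat shock protein that holds unfolding proteins in solution, was at 29, 46.9 and 61.3 CPM after larvae and 87.8, 74.2 and 104 CPM after injury. Untreated mycelium was at 70.2 to 85.6 CPM. The larva and injury groups did not overlap, and the difference was -0.92 ± 0.25 (adjusted p = 0.046). It was lost in 5 of the 6 repeats (adjusted p up to 0.28, without larva replicate 1). The same direction was called in the other libraries of 30 min (-2.82), 90 min (-3.33) and 4 h (-1.56). In the heat shock and chaperone list, 43 genes, 1 was higher and 1 lower, against 0.914% and 0.598% of all genes tested. The higher one was the DnaJ domain gene Tatro_001707-T1, a co-chaperone of Hsp70 (0.38 ± 0.10, adjusted p = 0.028, lost in 4 of the 6, adjusted p up to 0.276 without injury replicate 2).

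In most falls larva replicate 3 was the larva library nearest to injury. The acyl-CoA N-acyltransferase Tatro_011173-T1, of a family that moves acyl groups onto amines, was at 49.2, 79.7 and 149 CPM after larvae and 175, 203 and 170 CPM after injury, a range that overlaps the 176 to 195 CPM of untreated mycelium. With all 6 libraries the larva group was lower (-0.93 ± 0.22, adjusted p = 0.018). Without larva replicate 1 it was -0.62 (adjusted p = 0.169) and without larva replicate 3 it was -1.54, and calls were also lost without larva replicate 2 and without injury replicate 2. The actinin-type gene Tatro_005482-T1, an actin-binding protein, was at 337, 290 and 516 CPM after larvae, 549, 597 and 740 CPM after injury and 1023 to 1043 CPM in untreated mycelium (-0.71 ± 0.17, adjusted p = 0.019). Its call was lost in 4 of the 6 (adjusted p up to 0.166, without injury replicate 3). Of the 55 falls, larva replicate 3 was the highest of the 3 larva libraries in 47 and the lowest in 0. Of the 84 rises it was the highest in 9 and the lowest in 33. Larva replicate 2 was the lowest in 31 of them and larva replicate 1 in 20. The same counts over all genes tested were not made. Over all genes tested, larva replicate 3 also correlated more with the injury libraries (0.981 to 0.986) than larva replicates 1 and 2 did (0.961 to 0.966).

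Among called falls of genes at 10 CPM or more in the higher group and without overlap, the steepest were of genes without a product text. A steeper called fall, of Tatro_002935-T1 (-2.10 ± 0.56, adjusted p = 0.042), rested on low levels, 0.381, 0 and 1.25 CPM after larvae and 3.5, 3.66 and 3.03 CPM after injury. Tatro_002804-T1 was at 2.67, 11.4 and 25.5 CPM after larvae and 45.8, 51.5 and 33.6 CPM after injury. Its larva libraries spread widely but stayed below every injury library, and the difference of -1.53 ± 0.27 (adjusted p = 0.00083) was called in all 6 repeats, with -2.86 without larva replicate 3. Tatro_007302-T1 was at 4.96, 8.04 and 6.02 CPM after larvae and 12.6, 15.1 and 22.2 CPM after injury (-1.44 ± 0.31, adjusted p = 0.0081). It was lost without larva replicate 1 (adjusted p = 0.0605) and injury replicate 3 (adjusted p = 0.0883).

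Several functional groups held no called gene in larvae against injury at 8 h. Of 67 ribosomal protein genes 0 were called (median -0.06), and of 25 ribosome biogenesis genes 0 were called (median 0.08). The 39 DNA replication and repair genes, 27 fatty acid oxidation and glyoxylate genes, 33 protein kinase and phosphatase genes, 33 glutathione and thioredoxin genes and 39 ubiquitin and proteasome genes also had 0 calls. Their medians lay between -0.04 and 0.05. With 1.51% of all genes called, a count of 0 in lists of this size is near the share over all genes and says nothing particular of them. At an unadjusted p under 0.05, 1251 genes passed in all (13.6%), so a missing call does not show that a gene was equal after both damages.

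Some of the 8 h calls were also calls at earlier times, in the same or the opposite direction. Of the 139 genes, 21 were called in the same direction at 4 h, which is 15.1% of the 8 h calls and 3.74% of the 562 calls at 4 h, and 4 were called in the opposite direction. At 90 min 30 had a call in the same direction (21.6% of the 8 h calls and 2.78% of the 1078) and 2 in the opposite one. At 30 min 42 had one in the same direction (30.2% and 1.46% of the 2882) and 18 in the opposite one. Of all genes tested, 6.11% were called in either direction at 4 h, 11.7% at 90 min and 31.3% at 30 min. Among the falls alone, 7 were called in the same direction at 30 min and 14 in the opposite one. Each time uses separate libraries. The change of larvae against injury between 4 h and 8 h was itself called for 246 genes (2.68%), 30 of them among the 139. That count fell to 20 in a fit to the libraries concerned alone. Between 30 min and 8 h it was called for 1660 genes (18.1%), 60 of them among the 139. Both changes use the 8 h values from which the 139 were called, so nothing is read from the counts among the 139.

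**Figure D5:**
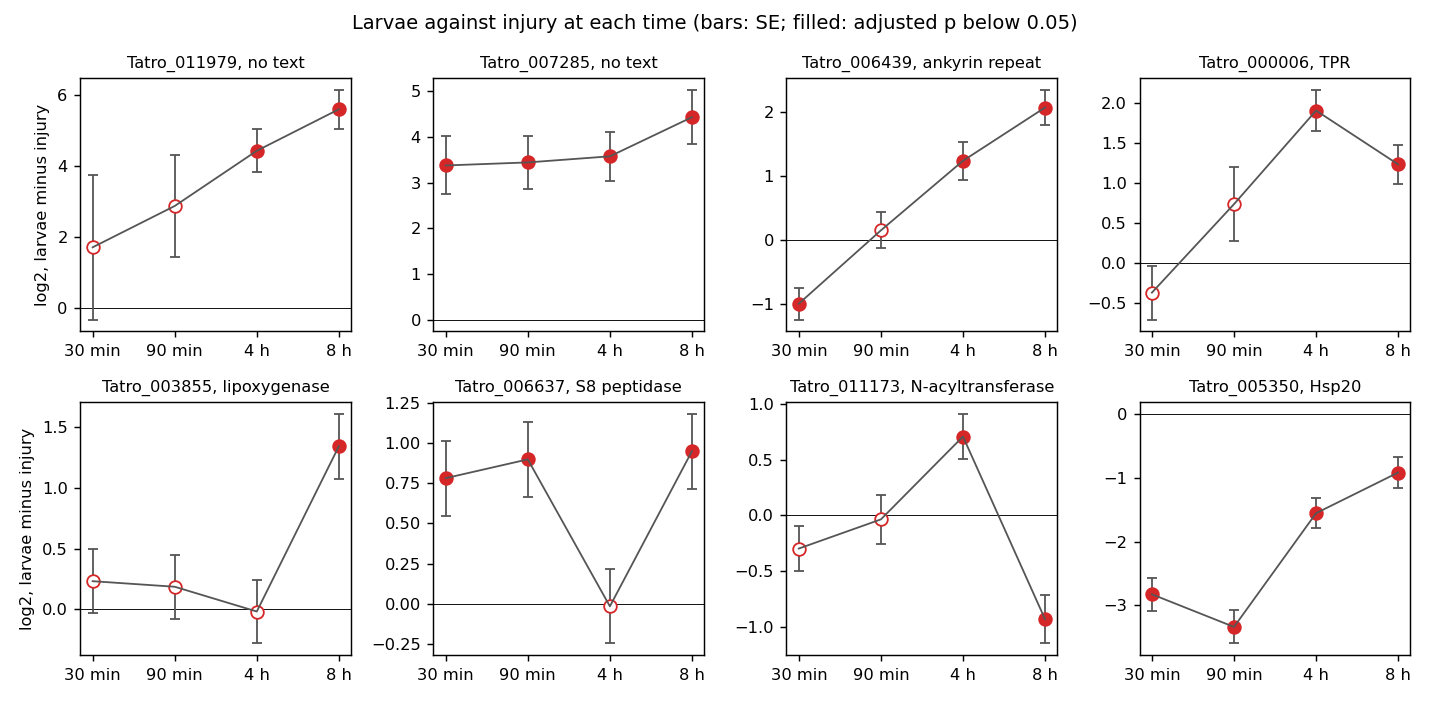
Larvae minus injury (log2, ± SE) at each of the 4 times for 8 genes, with filled points where the adjusted p was under 0.05. Tatro_006439 goes from -0.99 at 30 min to 2.08 at 8 h, Tatro_005350 (Hsp20) is below 0 throughout, and Tatro_003855 (lipoxygenase) leaves 0 only at 8 h.

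The 2 most abundant genes were not called. Tatro_002410-T1 was at 58668, 160740 and 2319 CPM after larvae and 9571 to 14055 CPM after injury, a 2.62 ± 1.01 difference on the log2 scale (adjusted p = 0.21) with larva replicate 3 below and the other larva libraries above every injury library. Without larva replicate 3 the difference was 3.19 (adjusted p = 0.0457) and without larva replicate 2 it was 1.37 (adjusted p = 0.653). Tatro_004257-T1 was at 12976, 29270 and 13855 CPM after larvae, 9704 to 10746 CPM after injury and 1571 to 2048 CPM in untreated mycelium. All its larva libraries lay above the injury libraries, with a difference of 0.87 ± 0.29 that was not called (adjusted p = 0.13) unless larva replicate 3 was left out (1.05, adjusted p = 0.0366). Without larva replicate 2 it was 0.40 (adjusted p = 0.629).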

How the data were processed

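Per the labels' protocols total RNA was extracted with TRIzol, and the library kit keeps strand. Reads were handled with HTSeq 0.14.1, HISAT2 2.1.0 and FastQC 0.11.6 per the submitters' processing notes. The sources used here give no build, annotation or strand setting. Overlapping and near-identical genes are therefore uncertain. The authors deposited raw read counts in 12018 rows, 1 per transcript model, for 11786 genes. Where a gene had several models (204 genes) their counts were the same, and 1 was kept. Per the file headers the authors' tables also give log2 fold changes, which were used only to check the column labels. For the 8 h larva table the mean absolute log2 difference was 0.14 from the larva columns, 0.475 from the injury columns and 1.18 from the collembola columns. The injury table lay 0.16 from the injury columns and 0.327 from the larva columns.

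Counts were fitted in R 4.3.3 with edgeR 4.0.16, whose default expression filter left 9193 genes. TMM factors, 1 coefficient per group and all 42 libraries were used, so that all groups share the estimate of the spread. The quasi-likelihood test was adjusted by the Benjamini-Hochberg method over all genes tested within a comparison. Standard errors follow from the log2 change and the F statistic. Interaction contrasts compared larvae minus injury between times. DESeq2 1.42.0, other scalings, filters, the 6 libraries alone, a replicate block and each library left out were alternatives. Where a replicate is left out, the remaining pair is assumed to vary like the other groups. Libraries of a group differed beyond sampling noise, with a chi-square per gene of 1.86 or more.

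The comparison, the gene lists and the rule for named genes were chosen with earlier results of these data known. The 38 lists are word patterns on the product texts. Some words were added or removed after the product texts and the first calls had been seen, among them those for mannosidases, arabinofuranosidases, isoprenoid synthases, AMP-binding enzymes and indoleamine dioxygenase, so that list counts are descriptions and no list was tested. The rule named the 10 largest rises and falls with a product text and the 2 largest of each without one, all called, at 10 CPM or more in the higher group and without overlap. It added up to 3 called members of each list, all members of 7 short lists (catalase, lipoxygenase, NADPH oxidase, MAP kinase, hydrophobin, CFEM and conidiation), the 2 most abundant genes and the members with a text in runs of at least 4 neighbouring IDs, 59 genes in all. The text gives a part of them.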

Additional observations from a re-analysis of the deposited data

Results flagged for a closer look

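Of the 59 genes named by rule, 8 showed a difference between times, where larvae minus injury at 8 h differed from larvae minus injury at 4 h in edgeR's quasi-likelihood interaction test. Most of the 59 were chosen for a called difference at 8 h, and the interaction uses the same 8 h values, so nothing is read from their count beside the 2.68% of all genes tested that passed. The 2 times use separate libraries.

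In 3 of them larvae minus injury went up from 4 h to 8 h. The lipoxygenase Tatro_003855-T1 changed by 1.36 ± 0.37 on the log2 scale (SE, adjusted p = 0.038). The EF-hand gene Tatro_003395-T1 changed by 1.23 ± 0.24 (adjusted p = 0.0027), from a called -0.50 to a called 0.73. The NAD(P)-binding gene Tatro_006928-T1, of a broad oxidoreductase fold, changed by 1.16 ± 0.31 (adjusted p = 0.03). Its 8 h levels were 230, 115 and 110 CPM after larvae and 85, 71.6 and 80 CPM after injury, and without larva replicate 1 its 8 h call was lost (log2 0.50, adjusted p = 0.349).

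In 5 genes larvae minus injury went down from 4 h to 8 h. The untexted Tatro_002804-T1 changed by -1.93 ± 0.36 (adjusted p = 0.0024) and the acyl-CoA N-acyltransferase Tatro_011173-T1 by -1.64 ± 0.30 (adjusted p = 0.0016), from a called 0.71 to a called -0.93. The isoprenoid synthase domain gene Tatro_011193-T1, of the fold of terpenoid-forming enzymes, changed by -1.74 ± 0.43 (adjusted p = 0.02). It was at 3.43, 12.7 and 44.2 CPM after larvae at 8 h and 40.6, 66.5 and 60.9 CPM after injury, overlapping groups, with a called -1.24 at 8 h that was -0.77 without larva replicate 1 (adjusted p = 0.188) and -3.01 without larva replicate 3. That 8 h call was lost in 4 of the 6 repeats (adjusted p up to 0.198, without injury replicate 2) and in the fit to the 6 libraries alone (adjusted p = 0.57). It came under the rule through a list word added after its values were seen. The glycoside hydrolase Tatro_010233-T1 changed by -1.25 ± 0.29 (adjusted p = 0.012). The double-stranded RNA-binding gene Tatro_001416-T1 changed by -0.95 ± 0.22 (adjusted p = 0.011), with 75.1, 77.7 and 92.8 CPM after larvae and 122, 130 and 124 CPM after injury at 8 h. Its 8 h call was lost in 4 of the 6 repeats (adjusted p up to 0.187, without injury replicate 2). The fit to the 6 libraries alone lost it too (adjusted p = 0.14).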

How the results depend on the processing

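The count of 139 calls for larvae against injury was 114 to 176 under the other scalings, filters, transcript models and DESeq2, but 11 in a fit to the 6 libraries alone, which also gave 11 genes changed at least 2-fold in place of 58. Leaving out 1 library gave 39 to 449 calls, and 28 to 209 at least 2-fold. Of the 139, 129 were also called by DESeq2. In fits to the libraries of the contrast alone, larvae against untreated gave 1444 calls in place of 2290 while injury against untreated gave 2962 in place of 2071, the change from 4 h to 8 h gave 20 in place of 246 and the change from 30 min to 8 h gave 1055 in place of 1660. With library totals in place of TMM the change from 4 h gave 153 calls. With library totals injury against untreated also split 1453 higher and 493 lower, against 1005 and 1066, with the median of all genes at 0.115. Leaving out 1 library gave 1668 to 2475 calls for larvae against untreated, 1360 to 1848 for injury against untreated, 56 to 477 for the change from 4 h and 1253 to 1678 for the change from 30 min. The causes were not tested. Of the 59 named genes none changed sign with a call. Some of the 59, such as the catalase and MAP kinase genes, were not called in the full fit and had no call to lose. The share lost among the called genes is therefore larger than the counts below make of 59. In the fit to the 6 libraries alone 39 of them lost their call, with library totals 11, without larva replicate 1 30 did, without injury replicate 2 27, without injury replicate 3 26 and without larva replicate 2 20. The labels state no pairing of samples by replicate number. Deviations from the group mean correlated at -4.76e-05, 0.00299 and 0.00751 between larva and injury libraries of the same number. Such values cannot settle whether samples were paired in the experiment. With the replicate number as a block there were 136 calls, 128 of them shared, and 3 named genes lost their call. Depth limits low genes most in larva replicate 2, with 1607248 counts.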

Other observations

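Of the 139 called genes 82 carried no product text, and so did 16 of the 21 called in every repeat. Of all 9193 genes tested 6328 carried none, so nothing particular is read from those counts. The genes named here were chosen after their values were seen. Some stood close together by ID. Tatro_010217-T1 was at 321, 273 and 186 CPM after larvae and 52.8, 65.9 and 61.1 CPM after injury (2.10 ± 0.42, SE, adjusted p = 0.004 in edgeR's quasi-likelihood test). The neighbouring Tatro_010216-T1 went the other way, at 170, 247 and 590 CPM after larvae and 801, 1016 and 767 CPM after injury (-1.34 ± 0.25, adjusted p = 0.0025). Both calls held in all 6 repeats. Since the strand setting of the counting is not given, reads of overlapping genes could not be told apart.

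The neighbours Tatro_011875-T1 and Tatro_011876-T1 were both higher after larvae. Tatro_011875-T1 was at 128, 400 and 170 CPM after larvae, 45.3, 46 and 56.9 CPM after injury and 17.8 to 24.2 CPM in untreated mycelium (2.20 ± 0.33, adjusted p = 0.00013). It was called higher after larvae at all 4 times. Tatro_011876-T1 was at 4.58, 14.7 and 6.02 CPM against 0.467, 1.02 and 2.1 CPM (2.62 ± 0.61, adjusted p = 0.018), with 16 injury reads in all. The call of Tatro_011875-T1 held in all 6 repeats and that of Tatro_011876-T1 did not. Tatro_002352-T1 and Tatro_002353-T1, also neighbours, differed by 2.34 and 1.91 and were, unlike most rises, highest in larva replicate 3, at 43 and 153 CPM. Of this pair only the call of Tatro_002352-T1 held in all 6 repeats.

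Tatro_007210-T1 was raised by both damages from near silence. It was at 95.7, 82.4 and 77.7 CPM after larvae, 39.7, 35.2 and 36.2 CPM after injury and 0.462 to 1.14 CPM in untreated mycelium. Larvae minus injury was 1.20 ± 0.30 at 8 h (adjusted p = 0.026) and -0.83 ± 0.28 at 4 h (adjusted p = 0.068), and the difference between the times was 2.03 ± 0.41 (adjusted p = 0.0047).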
